A study of Mus musculus with 5 samples.

Results

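Heart field regulators are transcription factors that set up the first and second heart fields, the 2 pools of mesoderm that form the heart, and the natriuretic peptides are secreted products of the muscle cells these factors specify. The 10 genes described here, called the heart field set, were chosen by name: the factors Nkx2-5, Hand1, Hand2, Mef2c and Isl1, the peptide genes Nppa and Nppb, the calcium handling genes Pln and Ryr2, and the small heat shock protein gene Cryab. All 10 were on the array, as 21 probe sets that carry no other gene's symbol, among 12393 genes measured. Of the 10, 7 were among the 7436 genes tested, and Hand2, Nppb and Pln lay under the 40th percentile of mean signal and were left out of that test. RNA of C57BL6J whole embryos, taken at gestation day 9.5, had been hybridised to Affymetrix Mouse Genome 430A arrays, 2 of Folr1-/- embryos and 3 of Folr1+/+ embryos. Folr1 encodes a folate receptor, and the targeted allele is absent from the Folr1+/+ group. The Folr1-/- embryos came from Folr1+/- parents, with the dams on added folate before mating and through pregnancy, and the labels give no separate diet for the dams of Folr1+/+ embryos, so any difference in diet cannot be told apart from genotype. Nothing in the labels tells pools from single embryos, so p-values measure the spread between these arrays.

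In the mouse, Isl1 and Mef2c act in second heart field progenitors, Nkx2-5 acts across the early heart, and Hand1 and Hand2, related basic helix-loop-helix factors, are needed for the ventricles, Hand1 mainly for the left and Hand2 for the right. Nppa is a gene of forming chamber muscle, where Nkx2-5, T-box and GATA factors act on its proximal promoter, and Nppb is its neighbour on the chromosome. Ryr2 encodes the calcium release channel of the sarcoplasmic reticulum, and Pln encodes phospholamban, which restrains the pump that refills that store. Several of these genes are also used outside the heart at this stage: Hand1 in trophoblast and extraembryonic mesoderm, Hand2 in pharyngeal arches and limb buds, Isl1 in motor neurons and foregut, and Cryab in lens and muscle.

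Nppa and Nppb follow each other on mouse chromosome 4 in the RefSeq gene order of GRCm38.p6. Their proximal promoters are shown because the paralogues are neighbours and the signal of Nppa differed between the groups. Each line holds the 250 bases before the RefSeq transcription start, from RefSeq (GRCm38.p6), with matches to the searched motifs in capitals. The window of Nppa is chr4:148000472-148000721 and that of Nppb is chr4:147985650-147985899, both on the plus strand.
Nppa: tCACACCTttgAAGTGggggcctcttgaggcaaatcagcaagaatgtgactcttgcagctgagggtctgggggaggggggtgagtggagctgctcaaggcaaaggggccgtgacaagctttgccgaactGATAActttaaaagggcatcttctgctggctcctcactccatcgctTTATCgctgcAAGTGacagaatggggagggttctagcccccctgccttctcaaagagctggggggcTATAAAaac
Nppb: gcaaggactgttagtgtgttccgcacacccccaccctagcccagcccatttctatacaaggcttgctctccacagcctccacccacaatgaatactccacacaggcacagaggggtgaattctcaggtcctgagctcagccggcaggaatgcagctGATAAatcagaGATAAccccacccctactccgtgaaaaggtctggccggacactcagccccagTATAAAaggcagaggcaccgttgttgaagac
The 7 motifs searched, on both strands, were the Nkx2-5 motif AAGTG, the GATA motif GATAA, the T-box motif AGGTGTG, the CArG box of serum response factor, the MEF2 motif CTANNNNTAG, TATAAA and the HAND E-box CATCTG. No matches of different motifs overlapped in the windows of these genes. The Nppa window held 2 matches to AAGTG, which 40.7% of 32841 RefSeq promoter windows of the same length hold at least once. It also held 1 match to the T-box motif, found in 5.11% of all windows, ending 243 bases before the start and followed by AAGTG at 239. The Nppb window held no match to either motif. Both windows held 2 matches to GATAA, which 22.6% of all windows hold at least once, and a TATAAA, which 12.4% hold at least once. The TATAAA lay 9 to 4 bases before the start in Nppa and 31 to 26 bases before it in Nppb. Neither window held the letters of the CArG box (1.47% of all windows), the MEF2 motif (3.2%) or CATCTG (14.4%). Promoter windows were matched for 8 of the 10 genes, all but Hand1 and Cryab.

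The arrays of the groups also differed beyond the heart. Xist, expressed from the inactive X chromosome, had signals of 419 and 770 in Folr1-/- replicates 1 and 2 and of 24.95 to 35.7 on the Folr1+/+ arrays. The Y-linked gene Eif2s3y had signals of 104 and 3.13 in Folr1-/- replicates 1 and 2 and of 300.3 to 372 on the Folr1+/+ arrays, so Folr1-/- replicate 1 carried both Xist and Y-linked signal. Xist was higher and Eif2s3y lower on each Folr1-/- array than on any Folr1+/+ array. The sex make-up of the arrays therefore cannot be told apart from genotype. The signal of Folr1 was 50.2 and 41.8 on the Folr1-/- arrays and 40.2 to 57.0 on the Folr1+/+ arrays (limma adjusted p = 0.858). Since the deleted part of Folr1 is not known from the labels, its signal does not check the genotype. Of the 20 tested markers of visceral endoderm, 20 rose, with a summed signal of 20868 to 21170 on the Folr1-/- arrays and 3564 to 4701 on the Folr1+/+ arrays. Of 9 tested primitive red cell markers, 6 fell (summed signal 362 to 831 against 5581 to 6519), and of 9 tested neural progenitor markers, 8 fell (394 to 439 against 1366 to 1426). The filter takes the mean over both groups, so a gene bright in only 1 group could enter the test through that group. With no filter, 6 of 14 red cell markers and 7 of 12 neural progenitor markers fell, and 20 of 20 endoderm markers rose. Sums were taken over all genes of a list on the array, tested or not, which were 20, 14 and 12 for these lists. No marker of these lists was listed at 0 on any array. The part of these differences in the results below was not tested.

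Of the 7 tested genes of the heart field set, 3 rose and 1 fell in Folr1-/- embryos. Over all tested genes 15.0% changed, 8.19% higher and 6.79% lower, at a limma adjusted p under 0.05 (Benjamini-Hochberg over 7436 genes). The genes that rose were Hand1, Isl1 and Cryab, and the gene that fell was Nppa, while Nkx2-5, Mef2c and Ryr2 did not pass. The filter took the mean over both groups, and Nppa passed it through its Folr1+/+ signals. With no filter, 2 of the 10 genes rose and 1 fell, against 436 higher and 311 lower of 12393 genes. The median log2 fold change of the 7 was 0.19, with a range of -1.69 to 1.11, and that of all tested genes was -0.02. The signals of the groups did not overlap in 6 of the 7, against 46.7% of all tested genes. Fold changes are Folr1-/- minus Folr1+/+ on the log2(signal + 16) scale, given with the standard error (SE), and are too small for dim genes. With each array centred on its median signal, 69.3% of all changed genes were higher in place of 54.7%, and the counts in the heart field set were the same. In RNA of whole embryos, fewer cells of a type and less RNA per cell cannot be told apart.

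**Figure D1:**
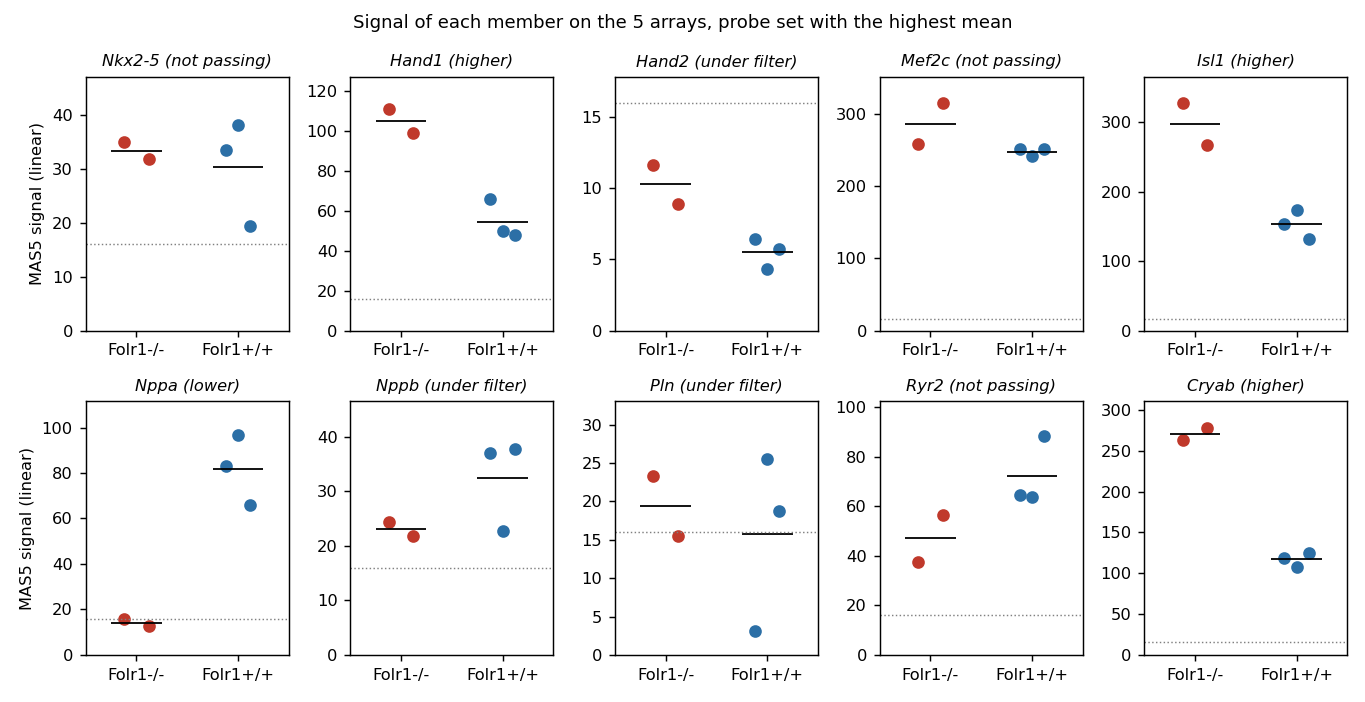
MAS5 signal (linear axis from 0) of the 10 genes on each array, with the 2 Folr1-/- arrays in red on the left of each panel and the 3 Folr1+/+ arrays in blue on the right; the black bar is the group mean and the dotted line is the pseudocount of 16. Isl1, Hand1 and Cryab lie higher on both Folr1-/- arrays than on any Folr1+/+ array, and Nppa lies at 15.6 and 12.8 against 66.0 or more.

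Isl1, the LIM homeodomain factor of second heart field progenitors, had signals of 327 and 267 on the Folr1-/- arrays and 154, 173 and 132 on the Folr1+/+ arrays. Both Folr1-/- values stood above all Folr1+/+ values, with group means of 297 ± 42.7 (SD, n = 2) and 153 ± 20.3 (SD, n = 3). This gave a log2 fold change of 0.89 ± 0.18 (SE; limma adjusted p = 0.0058). It no longer passed without Folr1-/- replicate 1, the array with both Xist and Y-linked signal (0.75, limma adjusted p = 0.098). Leaving out Folr1-/- replicate 2 in its place gave 1.03 (limma adjusted p = 0.022). The other Isl1 probe set had signals of 70.3 and 60.5 on the Folr1-/- arrays and 52.7, 44.1 and 47.4 on the Folr1+/+ arrays. It also showed no overlap between the groups, but with 0.34 ± 0.20 it did not pass in the fit over all probe sets (limma adjusted p = 0.39).

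Hand1 had signals of 111 and 99.0 on the Folr1-/- arrays and 65.9, 49.95 and 47.8 on the Folr1+/+ arrays. The groups did not overlap, with means of 105 ± 8.29 (SD, n = 2) and 54.6 ± 9.88 (SD, n = 3), giving a log2 fold change of 0.78 ± 0.19 (limma adjusted p = 0.018). This call was the least stable of the 4. It was lost without Folr1-/- replicate 1 (0.71, limma adjusted p = 0.17), without Folr1-/- replicate 2 (0.85, adjusted p = 0.078), without Folr1+/+ replicate 3 (0.72, adjusted p = 0.073), with no filter on dim genes (0.78, adjusted p = 0.061) and with the mean of its 2 probe sets (0.41, adjusted p = 0.14). The other Hand1 probe set read 5.91 and 12.8 on the Folr1-/- arrays and 2.52, 14.4 and 10.4 on the Folr1+/+ arrays, all under the pseudocount, with a log2 fold change of 0.03 ± 0.25.

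Hand2, the relative of Hand1 in the right ventricle and the pharyngeal arches, was too dim to enter the test over genes. Its only probe set read 11.6 and 8.89 on the Folr1-/- arrays and 6.41, 4.33 and 5.71 on the Folr1+/+ arrays. The groups did not overlap, as in 40.2% of all 12393 genes without a filter, and every value lay under the pseudocount of 16. In the fit over all probe sets its log2 fold change was 0.29 ± 0.16 (limma adjusted p = 0.37).

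Nkx2-5, the homeodomain factor found throughout the early heart, gave no call. Its signals were 35.0 and 31.7 on the Folr1-/- arrays and 33.4, 38.1 and 19.3 on the Folr1+/+ arrays. The groups overlapped, and the log2 fold change was 0.12 ± 0.23 (limma adjusted p = 0.78), with a 95% interval of -0.40 to 0.63, so a change of either sign within that range was not resolved. Without Folr1+/+ replicate 3, the lowest of the arrays, the value was -0.07.

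Mef2c, a MADS-box factor that acts downstream of Isl1 in the second heart field and is also used in vessels and neural crest, had 5 probe sets. The one with the highest mean read 257 and 314 on the Folr1-/- arrays and 251, 242 and 251 on the Folr1+/+ arrays. The lower Folr1-/- value stood just above the Folr1+/+ arrays, and the log2 fold change of 0.19 ± 0.16 did not pass (limma adjusted p = 0.46; 95% interval -0.16 to 0.54). Leaving out Folr1-/- replicate 2 gave 0.053, and leaving out Folr1-/- replicate 1 gave 0.32. All 5 Mef2c probe sets had positive log2 fold changes, from 0.19 to 0.68, and in 4 of them the groups did not overlap, against 38.0% of all 22626 probe sets. The 5 read the same RNA on the same arrays and are not independent. The highest fold change belonged to a probe set with signals of 60.2 and 87.9 on the Folr1-/- arrays and 37.2, 38.5 and 42.9 on the Folr1+/+ arrays (0.68 ± 0.22, limma adjusted p = 0.14).

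Nppa, which encodes atrial natriuretic peptide, showed the largest change of the 7 tested genes. Its only probe set read 15.6 and 12.8 on the Folr1-/- arrays and 82.9, 96.8 and 66.0 on the Folr1+/+ arrays. The highest Folr1-/- value was far under the lowest Folr1+/+ value, and the ratio of the group means on the linear scale was 0.173. The log2 fold change was -1.69 ± 0.21 (limma adjusted p = 3.0e-04), and it stayed between -1.81 and -1.58 with any array left out. Both Folr1-/- signals lay under the pseudocount, which therefore sets the size of the value: it was -2.44 with a pseudocount of 1 and -0.89 with a pseudocount of 64, and passed with each. Detection calls were not used here, so the Folr1-/- signals could not be told from background. Because the filter takes the mean over both groups, Nppa entered the test through its Folr1+/+ signals. With no filter its call held (limma adjusted p = 0.0052).

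Nppb, which encodes brain natriuretic peptide and whose window is printed above, lay under the filter. Its probe set read 24.3 and 21.8 on the Folr1-/- arrays and 36.9, 22.8 and 37.7 on the Folr1+/+ arrays. The groups overlapped through Folr1+/+ replicate 2, and in the fit over all probe sets the log2 fold change was -0.30 ± 0.24 (limma adjusted p = 0.56). Whether Nppa and Nppb differed from each other in their change was not tested.

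Ryr2, the calcium release channel gene, read 37.4 and 56.5 on the Folr1-/- arrays and 64.6, 63.6 and 88.4 on the Folr1+/+ arrays. The groups did not overlap, but the log2 fold change of -0.49 ± 0.22 did not pass over all genes (limma adjusted p = 0.15; 95% interval -0.96 to -0.02). Leaving out Folr1-/- replicate 1 gave -0.27, and leaving out Folr1-/- replicate 2 gave -0.71. The other Ryr2 probe set had -0.27 ± 0.23, with signals of 8.18 and 6.02 on the Folr1-/- arrays and 10.3, 6.43 and 20.3 on the Folr1+/+ arrays.

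Pln, the phospholamban gene, had 3 probe sets, all dim and all with overlapping groups. The one with the highest mean read 23.3 and 15.5 on the Folr1-/- arrays and 3.17, 25.5 and 18.7 on the Folr1+/+ arrays. The 3 log2 fold changes were 0.22 ± 0.34, -0.56 ± 0.28 and 0.13 ± 0.18, so that the probe sets did not share a direction, and no level or change of Pln could be read from these arrays.

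Cryab, which encodes alpha-B-crystallin, a small heat shock protein chaperone of muscle and lens, showed the highest rise of the 7. Its signals were 263 and 278 on the Folr1-/- arrays and 119, 107 and 125 on the Folr1+/+ arrays. The groups stood well apart, with means of 270.3 ± 10.3 (SD, n = 2) and 117 ± 9.0 (SD, n = 3), a ratio of 2.31 on the linear scale and a log2 fold change of 1.11 ± 0.16 (limma adjusted p = 8.6e-04). The call held with any array left out (1.05 to 1.15). The other 2 Cryab probe sets were dim, at 0.712 to 21.3 over all arrays, with log2 fold changes of 0.15 ± 0.21 and 0.12 ± 0.31, and the mean of the 3 did not pass (0.46, limma adjusted p = 0.13). Hspb2, the small heat shock protein gene next to Cryab on chromosome 9, read 32.2 and 23.7 on the Folr1-/- arrays and 28.9, 66.2 and 35.6 on the Folr1+/+ arrays and did not pass (-0.40 ± 0.27).

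**Figure D2:**
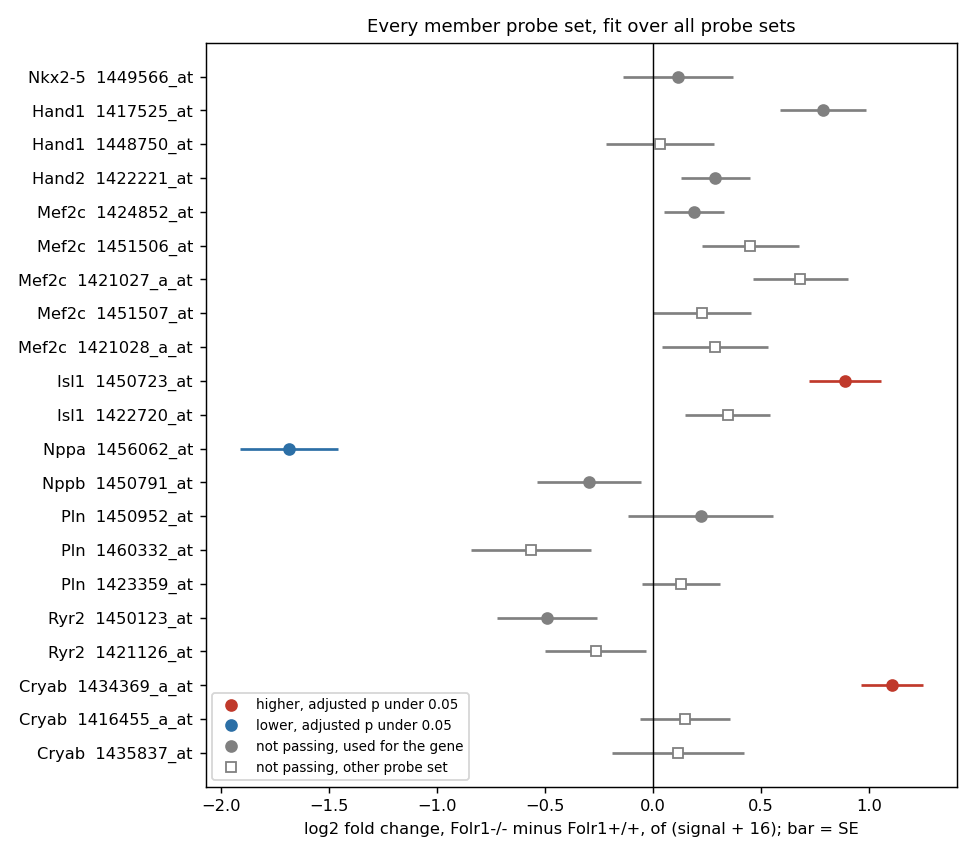
Log2 fold change (Folr1-/- minus Folr1+/+, x axis) with its SE for each of the 21 probe sets, from the fit over all probe sets; circles are the probe sets used for the gene and open squares the others, red is higher and blue lower at an adjusted p under 0.05. Isl1, Cryab and Nppa each have 1 probe set past the threshold, and the 5 of Mef2c all lie right of 0.

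In the fit over all 22626 probe sets, which has no filter, 3 of the 21 probe sets of these genes passed, those of Isl1, Nppa and Cryab, against 4.06% of all probe sets. With any 1 of the 5 arrays left out, that of Isl1 did not pass (limma adjusted p = 0.052 to 0.24), nor did it without the intensity trend (0.054). Those of Nppa and Cryab did not pass there without Folr1-/- replicate 1 (limma adjusted p = 0.091 and 0.089) or replicate 2 (0.076 and 0.073). The probe set of Hand1 did not pass in this fit (limma adjusted p = 0.076). Among the 11 probe sets not used for their gene, 10 had the sign of the one used, the exception being a probe set of Pln, and none of the 11 passed.

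**Figure D3:**
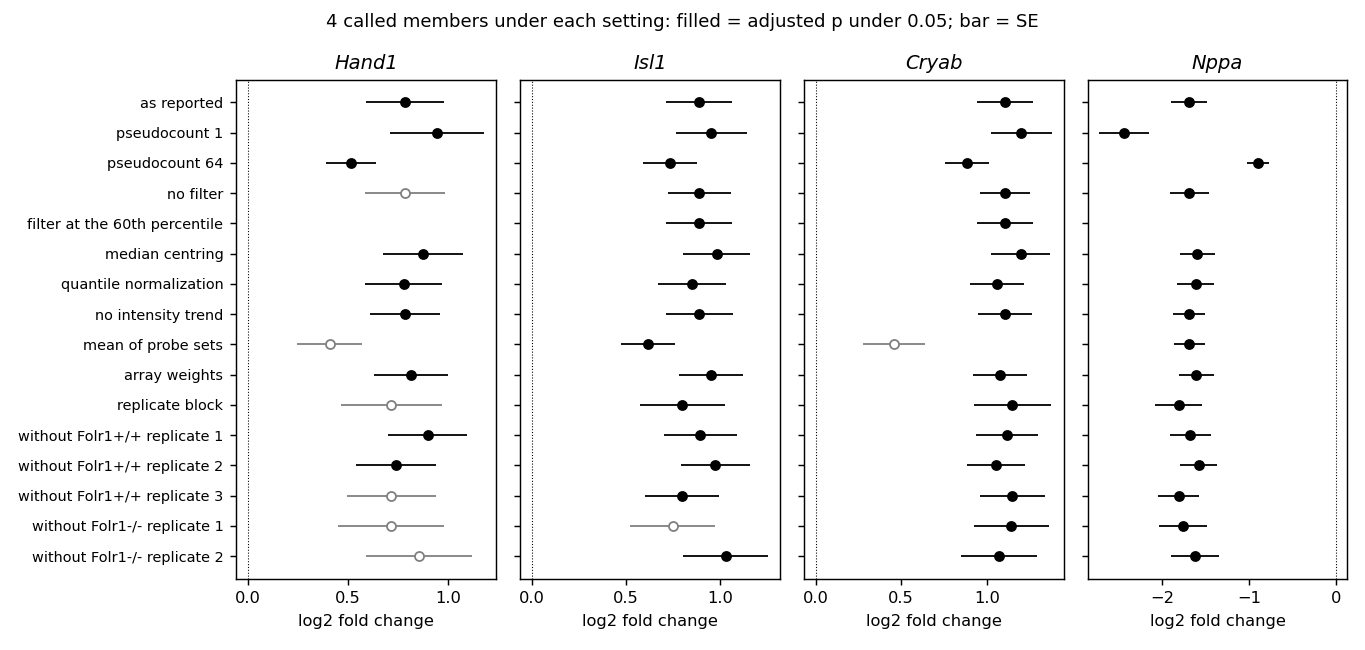
Log2 fold change with its SE (x axis, a scale of its own in each panel) of the 4 genes that passed, under the reported setting and up to 15 others; filled points have an adjusted p under 0.05, and a missing point means that the gene was removed by that filter. Nppa passed in 14 of 14 other settings, Isl1 and Cryab in 14 of 15 each and Hand1 in 8 of 14.

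More of the other factors and signals of the heart fields rose than fell. Of 21 tested, 9 rose, 2 fell and 10 did not pass, with a median log2 fold change of 0.28 against -0.02 for all tested genes. Of all tested genes 8.19% were higher and 6.79% lower. The largest rises were those of Bmp4, a ligand that promotes heart mesoderm (1.78 ± 0.25), Foxh1, the nodal signalling factor upstream of Mef2c (1.65 ± 0.22), and Smarcd3, a subunit of the chromatin complex that acts with T-box factors in the heart (1.59 ± 0.27). Gata4, Gata5 and Gata6, chosen after their values were seen, rose by 0.81 ± 0.24, 1.31 ± 0.20 and 0.93 ± 0.18. They are factors of both heart and endoderm, and the endoderm markers rose on the same arrays (20 of 20, summed signal 20868 to 21170 against 3564 to 4701), whose part in this was not tested. The other rises, also chosen after their values were seen, were those of Tbx3 (1.22 ± 0.17), Bmp2 (1.21 ± 0.25) and Tbx2 (0.83 ± 0.19). Among the 10 that did not pass, and chosen in the same way, were Tbx20 (0.28 ± 0.21), Hey2 (0.10 ± 0.22) and Smyd1 (-0.34 ± 0.19). The list was not limited to genes used only in the heart. The 2 that fell, also chosen after their values were seen, were Foxc1, a forkhead factor of mesoderm and neural crest (-1.06 ± 0.19), and Irx3 (-0.74 ± 0.17). Without Folr1-/- replicate 1, 5 of the list rose and 0 fell, and without Folr1-/- replicate 2, 7 rose and 1 fell. Irx3 also did not pass without Folr1+/+ replicate 3 (limma adjusted p = 0.060). These counts with arrays left out, here and for the lists that follow, were added after seeing the data. Gata4 passed with neither of these arrays left out (limma adjusted p = 0.21 and 0.16) and in 8 of 14 other settings, with 0.39 for the mean of probe sets (limma adjusted p = 0.27). Foxh1 and Gata5 passed with the mean of probe sets, at 1.09 and 0.60. Smarcd3 did not pass without replicate 1 (1.51, limma adjusted p = 0.051), nor did Gata6 without replicate 1 (0.74, limma adjusted p = 0.088).

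More sarcomere genes fell than rose. There were 8 falls, 2 rises and 10 genes that did not pass among 20 tested (median -0.11), and the summed signal of all 23 on the array was 8765 to 9248 on the Folr1-/- arrays and 10476 to 10931 on the Folr1+/+ arrays. The shares over all tested genes were 6.79% lower and 8.19% higher. The largest falls were those of the ventricular light chain gene Myl2 (-1.99 ± 0.20) and the heavy chain genes Myh7 (-1.36 ± 0.16) and Myh6 (-1.23 ± 0.18). The 2 that rose, chosen after their values were seen, were the cardiac troponin C gene Tnnc1 (0.61 ± 0.18) and the smooth muscle actin gene Acta2 (0.49 ± 0.15). Without Folr1-/- replicate 1, 3 sarcomere genes fell and 0 rose, without Folr1-/- replicate 2, 5 fell and 2 rose, which were Acta2 and Tpm1, and with no filter on dim genes 5 fell and 0 rose. Tnnc1 did not pass without Folr1-/- replicate 2 (0.61, limma adjusted p = 0.16), and over all 15 other settings it passed in 6 and Acta2 in 7. The rises of both also failed to pass without Folr1+/+ replicate 1 or replicate 3, and that of Acta2 without Folr1+/+ replicate 2. With the mean of probe sets Myh6 did not pass (-0.43, limma adjusted p = 0.074), nor did Acta2 (0.23, limma adjusted p = 0.47). The troponin T gene Tnnt2, a defining marker of heart muscle chosen after its values were seen, read 825 and 807 on the Folr1-/- arrays and 754, 821 and 735 on the Folr1+/+ arrays and did not pass (0.08 ± 0.14, limma adjusted p = 0.73).

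Calcium handling genes other than Pln and Ryr2 were mostly dim: 6 of 21 on the array were tested, 1 fell and 5 did not pass (median -0.13). Over all tested genes 6.79% were lower and 15.0% changed in either direction. The calcium handling gene that fell was Casq1, a calcium buffer of the sarcoplasmic reticulum best known from skeletal muscle (-1.19 ± 0.19). Atp2a2, the pump that phospholamban restrains, chosen after its values were seen, read 2826 and 3204 on the Folr1-/- arrays and 3477, 3333 and 3221 on the Folr1+/+ arrays and did not pass (-0.15 ± 0.14). Of 3 tested genes of natriuretic peptide handling, the clearance receptor gene Npr3 fell (-0.79 ± 0.20), the peptide-degrading protease gene Mme rose (0.98 ± 0.19) and 1 did not pass. Npr3 is also a gene of the endocardium, and Mme is found in many epithelia. The call of Npr3 was lost without either Folr1-/- array (limma adjusted p = 0.11 and 0.13) without Folr1+/+ replicate 3 (0.088) and with no filter on dim genes (0.066), and that of Mme without Folr1-/- replicate 2 (0.080). Of 3 tested small heat shock protein genes other than Cryab none passed. The smallest unadjusted p values among them were those of Hspb8 (0.56 ± 0.20, limma adjusted p = 0.077) and Hspb1 (0.47 ± 0.22, 0.17).

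**Figure D4:**
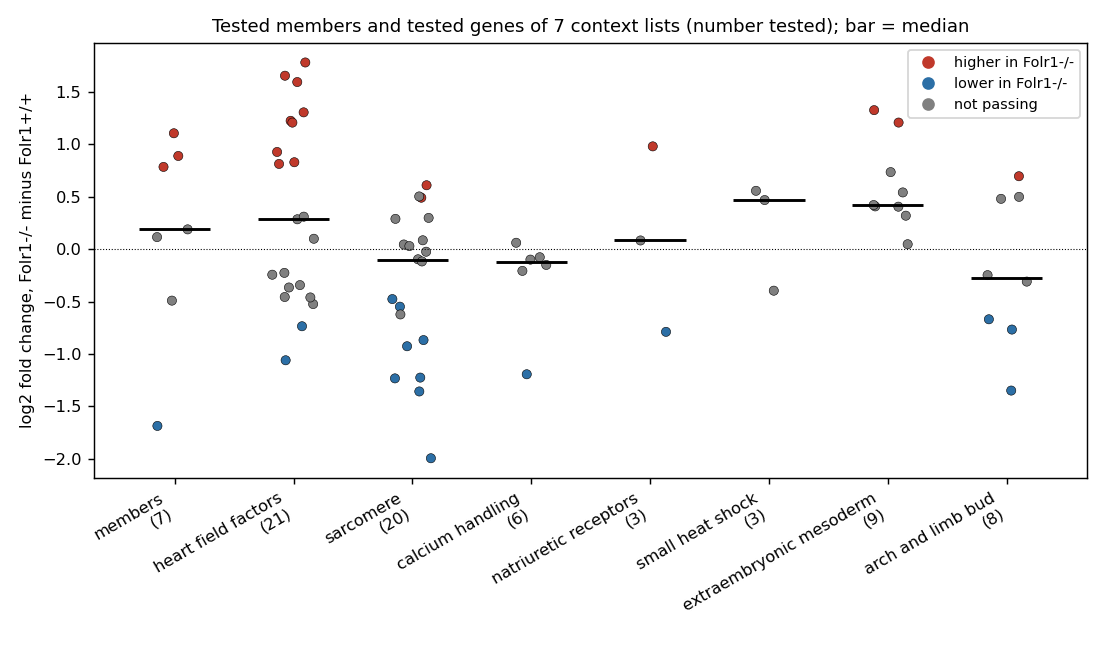
Log2 fold change (Folr1-/- minus Folr1+/+, y axis) of the 7 tested genes of the heart field set (members) and of the tested genes of 7 lists, with the number tested under each name; red is higher, blue lower and grey not passing, and the bar is the median. Heart field factors have 9 genes higher and 2 lower, and sarcomere genes 2 higher and 8 lower.

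Markers of other places where these genes are used were counted on the same arrays, with each sum taken over all genes of a list on the array, tested or not. For comparison, 8.19% of all tested genes were higher and 6.79% lower. Foregut, a place of Isl1 named above, had no list of its own, and the endoderm markers described above had 20 of 20 tested higher and 0 lower. For Hand1, extraembryonic mesoderm had 2 of 9 tested genes higher and 0 lower (summed signal 4884 to 6039 on the Folr1-/- arrays and 2456 to 3661 on the Folr1+/+ arrays), with Vcam1 at 1.33 ± 0.19 (0.59 with the mean of probe sets) and Pmp22 at 1.21 ± 0.15. Most of that sum came from Pmp22 (2520 and 2044 against 882 to 1036) and Ahnak (2370 and 1642 against 795 to 1606). Ahnak, chosen after its values were seen, did not pass (0.74 ± 0.25). Foxf1, Tbx4 and Hoxa13 of this list lay under the filter. Trophoblast had 3 of 4 higher and 0 lower (749 to 783 against 365 to 402), with Prl8a2 at 1.44 ± 0.38, Plac1 at 1.30 ± 0.16 and Cdx2, also a gene of the tail and gut, at 0.89 ± 0.23. The signals of Prl8a2 were 143 and 34.6 on the Folr1-/- arrays and 15.3, 13.6 and 23.2 on the Folr1+/+ arrays. Its log2 fold change was 2.27 without Folr1-/- replicate 2, and without replicate 1 it lay under the filter. With any 1 of the Folr1+/+ arrays left out it did not pass (limma adjusted p = 0.052 to 0.055), nor did it with no filter (0.096). Cdx2 did not pass without Folr1-/- replicate 2 (0.61, limma adjusted p = 0.23), without Folr1+/+ replicate 2 or 3 (0.064 and 0.089), with no filter (0.081) or with the mean of probe sets (0.36, limma adjusted p = 0.21). Trophoblast had 1 gene higher without Folr1+/+ replicate 2 or replicate 3. Ascl2, Tpbpa, Esx1, Peg10 and Ctsq of this list lay under the filter. With no filter 1 of 9 trophoblast genes was higher, and with the mean of probe sets 2 of 5, with 0 lower in each. For Hand2, pharyngeal arch and limb bud had 1 of 8 higher and 3 lower (1057 to 1070 against 1184 to 1254), with Prrx1 at -1.35 ± 0.18, Dlx2 at -0.77 ± 0.21 and Msx1 at 0.70 ± 0.20. With no filter 1 of 18 arch and limb bud genes fell and 0 rose. Without either Folr1-/- array 1 of these genes fell and 0 rose, without Folr1+/+ replicate 3, 1 fell and 1 rose, and without Folr1+/+ replicate 1 or replicate 2, 2 fell and 0 rose. For Isl1, only 1 of 13 motor and sensory neuron genes on the array passed the filter, which takes the mean over both groups. It was Stmn2, which did not pass the threshold (-0.02 ± 0.22), and the summed signal of the 13 was 188 to 212 against 281 to 379. With no filter, 2 of the 13 fell and 0 rose. Neurog2, under the filter and chosen after its values were seen, read 10.9 and 2.09 on the Folr1-/- arrays and 39.7, 59.9 and 51.6 on the Folr1+/+ arrays. Endothelial and endocardial markers gave 0 calls among 11 tested (summed signal 1736 to 1891 against 1731 to 2087), with Tek (0.42 ± 0.17) and Eng (-0.46 ± 0.21) having the smallest unadjusted p. With no filter, and also with the mean of probe sets, 1 of them fell and 0 rose. Emcn, under the filter and chosen after its values were seen, read 14.9 and 9.64 on the Folr1-/- arrays and 39.6, 50.9 and 34.5 on the Folr1+/+ arrays. No gene of these lists was listed at 0 on any array, and their part in the changes of Hand1, Hand2 and Isl1 was not tested.

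The genes whose signals followed those of the 4 called genes most closely were found by the Euclidean distance between log2(signal + 16) profiles over the 5 arrays, after each gene's mean was subtracted. Nearest to Isl1 were Etfa, an electron transfer flavoprotein subunit gene (distance 0.060, log2 fold change 0.94 ± 0.17), and Arhgef16 (0.093, 0.83 ± 0.19). Nearest to Hand1 were Plbd1 (distance 0.11, log2 fold change 0.80 ± 0.20) and the methyltransferase gene Smyd2 (0.13, 0.70 ± 0.16). Nearest to Cryab were the lipid acyltransferase gene Lpgat1 (distance 0.13, log2 fold change 1.04 ± 0.16) and Slc22a23 (0.13, 1.14 ± 0.16). Nearest to Nppa were Ermap, an erythroid membrane protein gene (distance 0.27, log2 fold change -1.50 ± 0.20), and Pax6, a transcription factor gene of the neural tube and eye (0.34, -1.84 ± 0.22). With 5 arrays in 2 groups, genes with a like difference between the groups lie close to each other by this measure.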

How the data were processed

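Per the submitters' processing notes, the authors deposited 1 linear MAS5 signal intensity for each probe set (no MAS5 version is given). Per the labels' protocols, 2 rounds of amplification, which enrich transcript 3' ends, came before the biotin label. The signal ratio of the 3' to the 5' Actb control probe set was 21.1, 39.5 and 29.1 on the Folr1+/+ arrays and 30.5 and 22.8 on the Folr1-/- arrays. Its part in differences between probe sets of a gene was not tested. The authors' scaling left the trimmed mean signal (2% trimmed at each end) at 150.06 to 150.07 on every array, and it was kept. Of 22690 probe sets 64 were controls, 20380 had 1 gene symbol in the platform annotation and 691 had several. A gene's value was that of its brightest probe set by mean log2(signal + 16). Genes under the 40th percentile of that mean were left out (4957 of 12393), leaving 7436.

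The test on log2(signal + 16) used lmFit and trended eBayes of limma 3.58.1 (R 4.3.3), Benjamini-Hochberg adjustment and a threshold of 0.05. It was run over genes and, separately, over all 22626 probe sets with no filter. The small number of arrays, with 3 residual degrees of freedom, limits the precision. The 10 genes, the lists and the tests were chosen with earlier results of these data known. Beside the 10 genes, the text names per list up to 3 called genes with the largest changes, or up to 2 with the smallest p, and the 2 nearest profiles of each called gene. Genes that do not follow this rule are marked as chosen after their values were seen. Alternatives covered the pseudocount, filter, scaling, trend, choice of probe set, array weights, the replicate number as a block and each array left out. Arrays with the same replicate number did not deviate together (correlations of 0.019 and -0.056 over tested genes). Promoter windows and gene order came from RefSeq tables of GRCm38.p6, matched by symbol.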

Additional observations from a re-analysis of the deposited data

How the results depend on the processing

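Of 100 values of the 7 tested genes under other settings, 90 kept their direction and their side of the threshold. Counts of changed genes over the whole table ranged from 367 to 1023 with 1 array left out (221 to 582 higher, 146 to 441 lower), against 1114 (609 and 505), and were lowest without Folr1-/- replicate 1. With no filter, 311 genes were lower. The genes of the heart field set that rose numbered 1 to 3 with an array left out, 1 being without Folr1-/- replicate 1, and 1 with the mean of probe sets. With the filter at the 60th percentile 0 fell, since Nppa was removed, and so was Hand1. With the replicate number as a block, the counts were 535 higher and 364 lower, and Hand1 did not pass (0.72, limma adjusted p = 0.064). Folr1+/+ replicate 3 then has a block of its own and adds nothing, and the numbers did not pair the arrays. Directions turned only in genes or probe sets that passed nowhere: Nkx2-5 had -0.0684 with the block, in the fits over genes and over all probe sets. With an array left out it ran from -0.0684 to 0.17 over genes and to 0.24 over probe sets. The dim probe sets ran from -0.17 to 0.23 (Hand1), -0.11 to 0.45 (Pln), and -0.0279 to 0.32 and -0.17 to 0.41 (Cryab), and the last had -0.0202 with array weights. The causes were not tested. No detection calls were used, so low signals limit what Nkx2-5, Hand2, Nppb, Pln and the low side of Nppa can show. Nkx2-5 lay just over the filter, at percentile 40.6 of mean signal, and under it without Folr1+/+ replicate 2.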
